A study of Homo sapiens with 12 samples.

Results

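Potassium channel genes were followed in A549 cells, a human lung adenocarcinoma line, after BTLA was knocked down and after cells were sorted on BTLA. BTLA is an inhibitory receptor best known from lymphocytes. The genes were chosen by name only: every protein-coding gene whose symbol starts with KCN, goes on with letters and ends in a number was taken, which gave 95 of the 60617 genes in the deposited tables. In the knockdown experiment 3 shBTLA libraries (cells with a short hairpin RNA against BTLA) were compared with 3 shControl libraries (wild-type cells). The paper's methods name the empty hairpin vector as the control. In the sort 3 libraries of the low BTLA subpopulation (BTLA low) were compared with 3 of the high BTLA subpopulation (BTLA high). The subpopulations were separated with a labelled antibody to the surface protein. Both experiments used the same line and base growth medium. The paper's methods describe lentiviral infection and drug selection for the hairpin cells, so handling differed between the experiments. The paper reports that the BTLA difference between the sorted subpopulations persisted but narrowed in later culture. It does not state how long the sequenced cells had been cultured. The sources used here name neither the hairpin behind these libraries nor the number of cultures behind each group, so the p-values below describe the spread between libraries, which may be technical.

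Potassium channels are membrane proteins that let potassium leave or enter a cell along its gradient, and so set the membrane voltage, help cells regain their volume after swelling and shape the entry of calcium. Most pore-forming subunits open with voltage, with calcium or sodium inside the cell, or act as background (K2P) channels in the resting cell. Inward rectifiers pass potassium more easily into the cell than out of it, and small auxiliary subunits tune the gating and surface delivery of the pores. In epithelial tumour cells such as A549 these channels are studied mainly for their part in proliferation, volume control and migration.

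The 12 libraries held 29130357 to 42488067 reads assigned to genes. Values are given as RPM (reads divided by the library total and scaled to a total of 1e6), from whole reads recovered from the deposited RPKM, and 3 reads, taken here as the floor of detection, came to 0.0706 to 0.103 RPM. Floors and ratio intervals in the text cover counting error only and treat each read as independent. PCR reads without molecular tags are not independent molecules, and mates may have been counted in pairs, so the intervals may be too narrow. BTLA itself was at 0 reads in 10 of the 12 libraries and at 2 reads in shControl replicate 3 and BTLA high replicate 3. Neither the knockdown nor the sort could thus be checked on the RNA of these libraries. The paper reports its own checks, by qRT-PCR or immunoblot for the knockdown and by flow cytometry for the sort. Of the epithelial markers, KRT8 had 124140 to 504227 reads and KRT18 45402 to 232633. CDH1 had 270 to 2893, EPCAM 81 to 293 and KRT19 5 to 30, so KRT8 and KRT18 made up nearly all of the summed markers. The summed level of the 5 epithelial markers was 12128 to 14714 RPM in shBTLA and 5839 to 9530 RPM in shControl, and 17654 to 20848 RPM in BTLA low and 12028 to 15330 RPM in BTLA high, and its part in the results was not tested. The 7 lymphocyte markers summed to 7 to 49 reads a library, nearly all from CD79A, with CD3E, CD3D, CD2 and MS4A1 at 0 in every library. The shControl libraries were less alike than those of the other groups: over the tested genes each correlated with the other libraries of its group at a mean r of 0.975 to 0.985, against 0.987 to 0.990 elsewhere.

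Most potassium channel genes were little read in these cells. A gene was tested where at least 3 of the 6 libraries of an experiment had at least 10 reads, a minimum that 41 of the 95 genes met in the knockdown, against 44 for the sort. Both tests held 40 of them, while KCNS1 was tested in the knockdown only and KCNJ2, KCNJ3, KCNQ1 and KCNU1 in the sort only. The other 50 were tested in neither, and 15 of these had no read in any of the 12 libraries. Those 15 were mostly voltage-gated subunits (KCNA1, KCNA3, KCNA4, KCNA5, KCNA6, KCNA10, KCNB2, KCNC2 and KCND2), together with KCNE2, KCNJ18, KCNK16, KCNK17, KCNK18 and KCNMB2. KCNJ18 is a near-identical copy of KCNJ12, so a read from either may have been lost or split in the counting.

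Per kilobase of merged exons, the most abundant potassium channel gene was KCNN4, which encodes the intermediate-conductance calcium-activated channel of epithelial and blood cells. Its level was 13.5 ± 0.599 RPM per kb in shBTLA, 12.3 ± 2.34 in shControl, 10.6 ± 1.29 in BTLA low and 12.8 ± 1.23 in BTLA high (SD, n = 3 each). KCNH3, a voltage-gated channel of the ELK group, and KCNK1, a K2P channel also called TWIK-1, filled the next 2 places in each group, at 4.54 to 7.53 RPM per kb. KCNN4 itself did not pass the test in either experiment: in the knockdown it was at 42.1 ± 1.87 RPM in shBTLA and 38.4 ± 7.32 RPM in shControl, with overlapping groups. In the sort it was at 33.1 ± 4.03 RPM in BTLA low and 40.03 ± 3.85 RPM in BTLA high, a log2 difference of -0.27 (limma adjusted p = 0.120). With the libraries scaled to the same median, the KCNN4 difference in the sort was -0.53 and passed, as it did without BTLA high replicate 3. Exon lengths came from a GENCODE annotation that matched 94 of the 95 genes. KCNMA1, with 39437 merged exon bases, ranks lower on this scale (0.467 ± 0.0464 RPM per kb in shBTLA) than its reads alone would place it.

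In the knockdown, 3 of the 41 tested potassium channel genes passed the test: the K2P channel gene KCNK5 and the hERG gene KCNH2 were higher in shBTLA, and the calcium-activated channel gene KCNMA1 was lower. Over all 16630 genes tested the share past the same threshold (limma, Benjamini-Hochberg adjusted p under 0.05) was 1.47%, with 0.782% higher and 0.686% lower. The median log2 difference was 0.12 over the potassium channel genes and -0.02 over all genes. None of the 11 tested voltage-gated Kv1 to Kv4 and silent subunits passed. Nor did any of the 4 KCNQ genes, 3 inward rectifiers or 8 auxiliary subunits tested. At an unadjusted limma p under 0.05 there were 6 higher and 3 lower genes among the 41. Over all 16630 genes there were 898 higher and 892 lower at that threshold. In 12 of the 41 genes the 3 shBTLA libraries did not overlap the 3 shControl libraries (8 higher, 4 lower), where 17.9% of all genes did not overlap (9.14% higher, 8.77% lower). Scaled to the same median, 3 potassium channel genes again passed (2 higher, 1 lower), where 1.7% of all genes did (0.884% higher, 0.818% lower). No potassium channel gene passed without shBTLA replicate 1, 2 or 3 or shControl replicate 3. Over all genes, too, the fewest passed without each of these 4 libraries, as counted in the last section. Without shControl replicate 1, 4 potassium channel genes passed, and without shControl replicate 2, 2 passed. The shares of all genes without shControl replicate 1 or 2 are not given here.

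In the sort, 18 of the 44 tested genes passed, 15 of them higher and 3 lower in BTLA low. Of the 15, KCNU1, KCNJ2 and KCNJ3 had reached the read minimum through the BTLA low libraries only and so had to differ. Here 25.4% of all 16911 genes passed (19.1% higher, 6.25% lower), so many genes differed between these subpopulations whatever their function. Leaving out every gene that reached the minimum through 1 group only, a step chosen after seeing the data, 15 of 41 potassium channel genes passed (12 higher, 3 lower), where 25% of all genes did (18.8% higher, 6.21% lower). The median log2 difference of the 44 genes was 0.26, against 0.18 over all genes. Scaling the libraries to the same median moved the median of all genes from 0.18 to -0.08, and 19 of the 44 then passed, 11 higher and 8 lower, where 27.6% of all genes did (9.34% higher, 18.3% lower). Of the 18, 14 passed again under that scaling, while KCNAB3, KCNH3, KCNJ3 and KCNS3 did not. The groups did not overlap in 22 of the 44 genes (17 higher, 5 lower), where 41.8% of all genes did not (30.4% higher, 11.4% lower). The summed level of all 95 genes was 261 ± 1.77 RPM in BTLA low and 248 ± 2.25 RPM in BTLA high (p = 0.1 by a two-sided exact permutation test, which is the lowest value 6 libraries allow), and 253 ± 12.02 RPM in shBTLA and 252 ± 12.8 RPM in shControl (exact permutation test, p = 1).

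**Figure D1:**
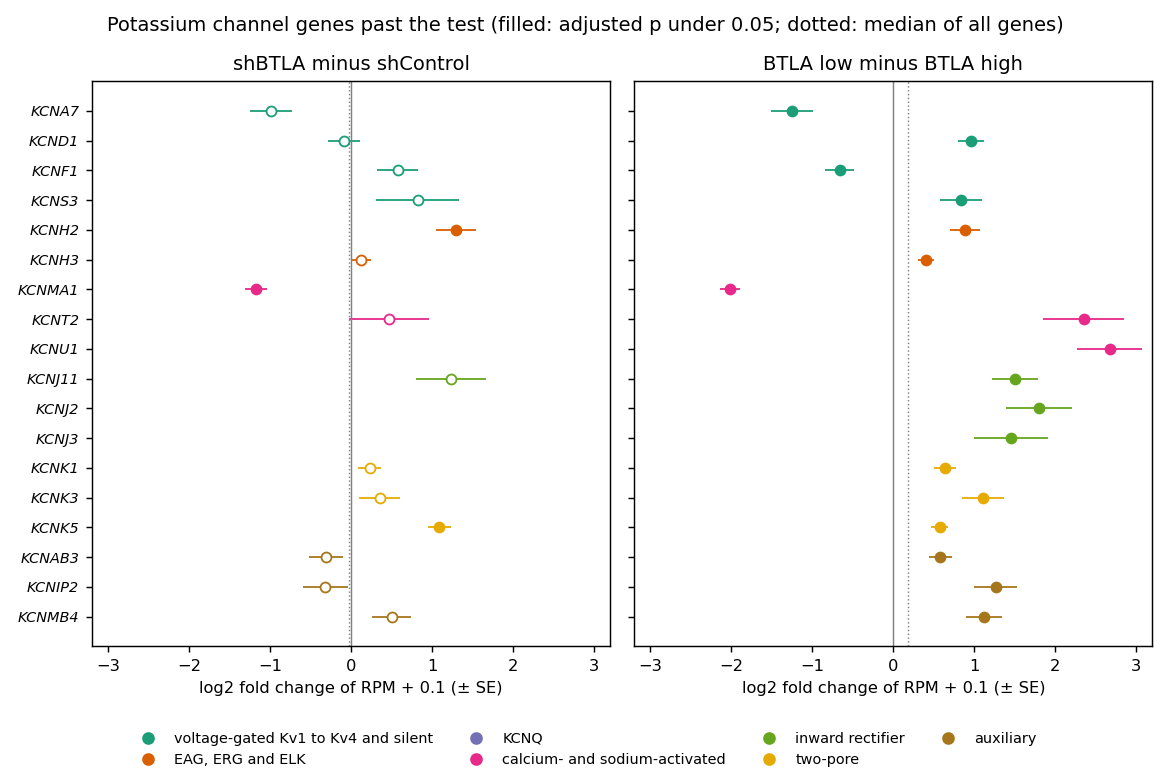
The log2 difference (with its SE) of the potassium channel genes past the test in either experiment is plotted where tested for the knockdown (left) and the sort (right), coloured by role, with filled points for an adjusted p under 0.05 and the median of all genes as a dotted line. 3 points are filled on the left and 18 on the right, and KCNMA1 lies furthest to the left in the sort panel.

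Markers of neurons, a cell type in which many of these channels are best known, moved with the sort. RBFOX3, SNAP25 and SYT1 summed to 24.7 to 28.3 RPM in BTLA low and 7.98 to 9.64 RPM in BTLA high, and to 10.1 to 11.5 RPM in shBTLA and 7.39 to 12.1 RPM in shControl. RBFOX3 alone had 432 to 619 reads in the BTLA low libraries and 118 to 161 in the BTLA high libraries. The part of these markers in the differences below was not tested. All 12 libraries are of the A549 line. In their bulk RNA, fewer A549 cells with these transcripts and less of the RNA per cell cannot be told apart.

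KCNMA1 encodes the pore of the large-conductance (BK) channel, which opens with voltage and calcium together. It lies at chr10:76869601-77638369 on the minus strand (GRCh38). In the knockdown it was at 20.1, 18.7 and 16.5 RPM in the 3 shBTLA libraries and at 39.4, 46.6 and 39.0 RPM in the 3 shControl libraries. Every shBTLA library lay well below every shControl library. The means were 18.4 ± 1.83 and 41.7 ± 4.25 RPM (SD, n = 3 each), a log2 difference of -1.17 (SE 0.13, limma adjusted p = 0.00883). The adjusted p rose to between 0.0571 and 0.0842 when any of shBTLA replicates 1, 2 and 3 or shControl replicate 3 was left out. In the sort KCNMA1 was at 7.39, 7.06 and 6.25 RPM in BTLA low and at 28.7, 30.4 and 25.7 RPM in BTLA high. The groups were again far apart, with a log2 difference of -2.02 (SE 0.12, limma adjusted p = 2.53e-05) and -2.28 after scaling to the same median. KCNMA1 gave 15.9 to 17.4% of all potassium channel reads in the shControl libraries and 6.84 to 7.98% in the shBTLA libraries, and 10.5 to 12.3% in BTLA high and 2.41 to 2.82% in BTLA low. Several antisense genes overlap its span, and no source used here says whether the counting used strand.

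The beta subunits of the BK channel did not follow the pore gene. KCNMB4, whose product slows BK gating and is best known from neurons, was at 5.04, 3.83 and 5.11 RPM in BTLA low and at 1.70, 1.88 and 2.78 RPM in BTLA high. It thus rose in BTLA low, where the pore gene fell, by 1.12 on the log2 scale (SE 0.22, limma adjusted p = 0.00700). In the knockdown KCNMB4 averaged 1.97 ± 0.357 RPM in shBTLA and 1.35 ± 0.0825 RPM in shControl (limma adjusted p = 0.512). KCNMB3 was at 1.98 to 2.27 RPM on average in the 4 groups and passed neither test. KCNMB1 had 2 reads in shBTLA replicates 2 and 3 and none elsewhere, and KCNMB2 had none.

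Of the other calcium- and sodium-activated channels, KCNU1 and KCNT2 were higher in BTLA low on few reads. KCNU1 encodes SLO3, the relative of the BK channel known from sperm, and had 22, 19 and 20 reads in the BTLA low libraries against 0, 0 and 1 in the BTLA high libraries. The pooled ratio was 64.6, with a 95% counting interval from 11.2 to 2592 (limma adjusted p = 0.00157). In the knockdown KCNU1 was below the read minimum, with 7, 4 and 13 reads in shBTLA and 0, 1 and 0 in shControl, a pooled ratio of 20.5 (counting interval 3.35 to 845, exact permutation p = 0.1, the smallest possible). KCNT2, the sodium-activated SLICK channel gene, counted 27, 37 and 44 reads across BTLA low against 0, 12 and 6 in BTLA high, a log2 difference of 2.35 (SE 0.50, limma adjusted p = 0.00897). Its knockdown groups overlapped, with 10, 12 and 6 reads in shBTLA and 6, 1 and 10 in shControl. KCNT2 reached the read minimum in the sort with all 3 BTLA low libraries and 1 BTLA high library. KCNU1 reached it there through the BTLA low libraries only and so had to differ.

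**Figure D2:**
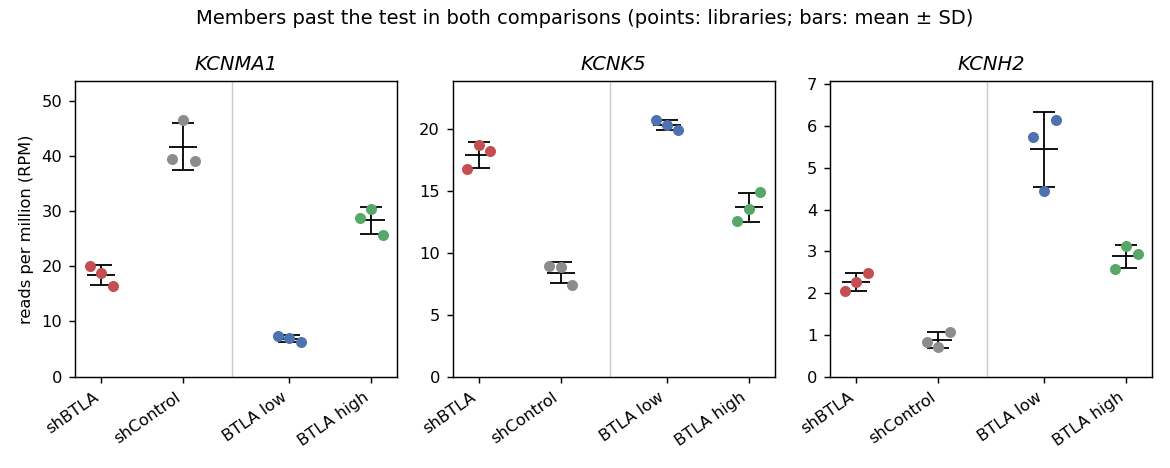
RPM of KCNMA1, KCNK5 and KCNH2 in each of the 12 libraries (points), with the mean and SD of the 3 libraries in each group (bars). KCNMA1 is lower, and KCNK5 and KCNH2 are higher, in shBTLA than in shControl and in BTLA low than in BTLA high, with no overlap within an experiment.

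KCNK5 and KCNH2 passed in both experiments, each time higher where BTLA was targeted or low. KCNK5 encodes TASK-2, a K2P channel of epithelia that opens at alkaline pH and takes part in volume regulation. It was at 16.7, 18.7 and 18.2 RPM in shBTLA and at 8.89, 8.81 and 7.40 RPM in shControl. The lowest shBTLA library was well above the highest shControl library, and the log2 difference was 1.09 (SE 0.14, limma adjusted p = 0.0135). In the sort KCNK5 was at 20.7, 20.3 and 19.9 RPM in BTLA low and at 12.6, 13.5 and 14.9 RPM in BTLA high. This smaller difference of 0.57 (SE 0.11, limma adjusted p = 0.00555) fell to 0.31 with libraries scaled to the same median, and still passed. Leaving out the same 4 knockdown libraries as for KCNMA1 raised the adjusted p of KCNK5 to between 0.0956 and 0.129.

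KCNH2 encodes hERG, the voltage-gated channel that repolarises heart muscle and has been described in tumour cells. It was at 2.05, 2.27 and 2.49 RPM in shBTLA and at 0.824, 0.713 and 1.08 RPM in shControl. The groups did not overlap, with a log2 difference of 1.299 (SE 0.25, limma adjusted p = 0.0483). This call sat close to the threshold: it was lost without any 1 of the 5 knockdown libraries other than shControl replicate 1, with no read minimum and with voom weights, at adjusted p-values of 0.0532 to 0.269. In the sort KCNH2 was at 5.75, 4.44 and 6.16 RPM in BTLA low and at 2.58, 3.13 and 2.94 RPM in BTLA high, a log2 difference of 0.89 (SE 0.18, limma adjusted p = 0.00754).

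The windows of 150 bases just upstream of the KCNH2 and KCNK5 starts are shown because these were the only 2 of the 95 potassium channel genes past the test and higher in both experiments. The letters are from RefSeq (GRCh38.p14), both on the minus strand, at chr7:150978322-150978471 for KCNH2 and chr6:39229476-39229625 for KCNK5, with the GC box GGGCGG in capitals.
KCNH2: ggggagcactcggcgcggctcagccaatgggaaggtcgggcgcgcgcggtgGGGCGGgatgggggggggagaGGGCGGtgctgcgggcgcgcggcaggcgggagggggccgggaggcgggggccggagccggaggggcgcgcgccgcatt
KCNK5: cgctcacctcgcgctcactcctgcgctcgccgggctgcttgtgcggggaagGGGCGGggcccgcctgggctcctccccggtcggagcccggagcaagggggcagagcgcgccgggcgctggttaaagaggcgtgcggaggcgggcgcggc
Both windows were rich in G and C, with 82.7% in KCNH2 and 78.0% in KCNK5, where the median of 35116 such windows was 60% (quartiles 47.3 and 70.0%). KCNH2 held 2 GC boxes and 1 CCAAT, and KCNK5 held 1 GC box and no CCAAT, counting both strands. A GC box was found in 36.8% of all windows and CCAAT in 23.5%. Neither window held the TATA box TATAAA (6.71% of all windows) or the AP-1 motif TGACTCA (2.89%). A match describes the letters only and is no evidence of a bound site. The table matched 71 of the 95 genes, with 5 start windows for KCNH2 and 1 for KCNK5. For KCNH2 the window nearest the annotated 5' end of the gene was taken. Which start these cells use was not tested.

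Among the other background channels, KCNK1 and KCNK3 rose in BTLA low. KCNK1 was at 25.4, 28.3 and 25.95 RPM in BTLA low and at 16.8, 14.3 and 20.3 RPM in BTLA high, a log2 difference of 0.64 (SE 0.14, limma adjusted p = 0.00924) that fell to 0.38 with libraries scaled to the same median, and still passed. KCNK3, the acid-sensitive TASK-1 gene, was at 2.55, 2.97 and 2.34 RPM in BTLA low and at 1.59, 1.18 and 0.821 RPM in BTLA high, a difference of 1.11 (limma adjusted p = 0.0139). In both genes every BTLA low library lay above every BTLA high library. In the knockdown their differences were 0.23 and 0.35 and neither passed (limma adjusted p = 0.656 and 0.706). KCNK6, the TWIK-2 gene, averaged 13.5 ± 1.29 RPM in BTLA low and 13.9 ± 1.06 RPM in BTLA high, with overlapping groups.

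Of 5 inward rectifiers tested in the sort, KCNJ11, KCNJ2 and KCNJ3 were higher in BTLA low. KCNJ2 and KCNJ3 reached the read minimum through the BTLA low libraries only and so had to differ. KCNJ11 encodes Kir6.2, the pore of the ATP-sensitive channel that closes when ATP is plentiful. It was at 2.93, 2.22 and 2.74 RPM in BTLA low and at 0.539, 1.01 and 1.14 RPM in BTLA high, a log2 difference of 1.501 (SE 0.29, limma adjusted p = 0.00547). ABCC8, which encodes SUR1, the sulphonylurea receptor that surrounds this pore, was at 3.54, 4.002 and 5.02 RPM in BTLA low and at 1.81, 1.41 and 2.15 RPM in BTLA high, a difference of 1.18 (SE 0.22, limma adjusted p = 0.00464). Both parts of this channel were thus higher in every BTLA low library than in any BTLA high library. In the knockdown KCNJ11 was at 1.47, 1.79 and 0.910 RPM in shBTLA and at 0.549, 0.907 and 0.258 RPM in shControl. The lowest shBTLA library and the highest shControl library were nearly equal, and the difference of 1.23 did not pass (SE 0.43, limma adjusted p = 0.321), nor did that of ABCC8 (0.45, limma adjusted p = 0.589). KCNJ2 (Kir2.1, which holds the resting voltage) counted 12, 30 and 18 reads across BTLA low against 6, 2 and 2 in BTLA high, a log2 difference of 1.80 (limma adjusted p = 0.0116). KCNJ3, a G-protein-gated channel gene, counted 11, 16 and 12 reads against 6, 4 and 0, a log2 difference of 1.46 (limma adjusted p = 0.0433). This last call was lost without any library other than BTLA high replicate 1.

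**Figure D3:**
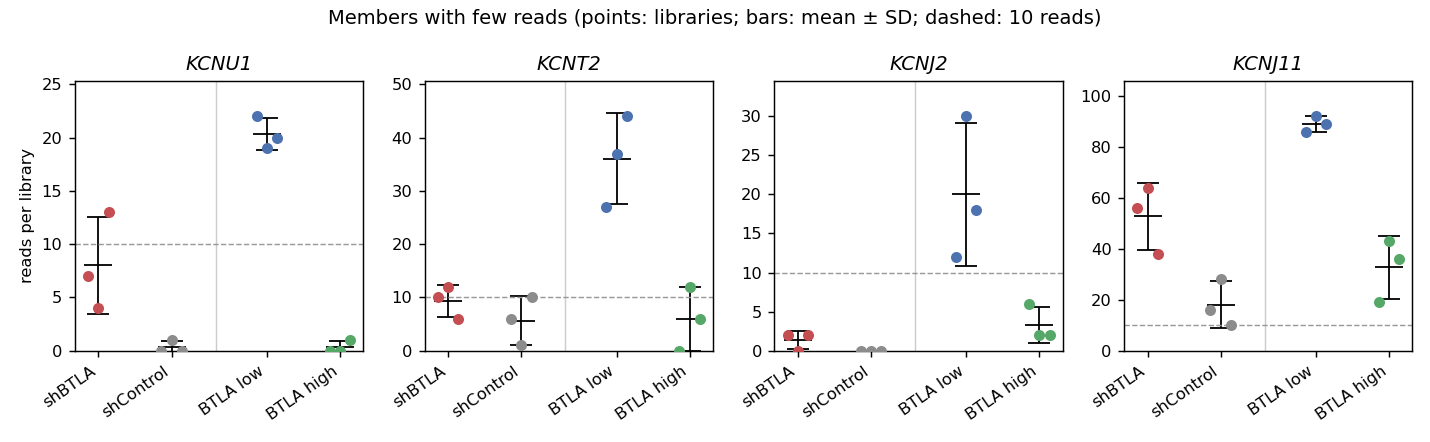
Reads per library of KCNU1, KCNT2, KCNJ2 and KCNJ11 (points), with the mean and SD of the 3 libraries in each group (bars) and the minimum of 10 reads as a dashed line. In each gene all 3 BTLA low libraries are above all 3 BTLA high libraries, while shControl libraries have 0 or 1 read of KCNU1 and none of KCNJ2. In the sort KCNU1 and KCNJ2 reached the minimum through BTLA low only and so had to differ.

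Among the voltage-gated genes the sort gave changes in both directions. KCND1, which encodes the fast-inactivating Kv4.1 channel, was at 8.20, 8.75 and 8.59 RPM in BTLA low and at 3.997, 5.30 and 3.82 RPM in BTLA high, a log2 difference of 0.96 (SE 0.16, limma adjusted p = 0.00292). KCNIP2, whose product KChIP2 is an auxiliary subunit of Kv4 channels, was at 1.36, 1.42 and 1.32 RPM in BTLA low and at 0.397, 0.659 and 0.506 RPM in BTLA high, a difference of 1.26 (SE 0.27, limma adjusted p = 0.00851). In the knockdown KCND1 and KCNIP2 differed by -0.09 and -0.32 and neither passed (limma adjusted p = 0.908 and 0.753). KCNA7, a Kv1 channel gene known from muscle, was at 0.510, 0.844 and 0.708 RPM in BTLA low and at 1.93, 1.67 and 1.64 RPM in BTLA high. It fell by 1.25 on the log2 scale (SE 0.25, limma adjusted p = 0.00744). Its knockdown libraries did not overlap either, at 0.895, 1.09 and 0.695 RPM in shBTLA and 1.85, 1.68 and 2.01 RPM in shControl, but the difference of -0.99 did not pass (limma adjusted p = 0.148).

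The silent subunits, which form no channel alone and alter the channels they join, were less stable. In BTLA low KCNF1 fell by 0.66 (SE 0.18, limma adjusted p = 0.0258), a call lost without any of BTLA low replicates 1 and 3 and BTLA high replicates 1 and 2. In the knockdown it lay the other way, at 8.63, 7.91 and 7.47 RPM in shBTLA and 3.57, 7.06 and 5.98 RPM in shControl (difference 0.58, limma adjusted p = 0.466). In the sort KCNS3 was higher by 0.84 (SE 0.26, limma adjusted p = 0.0452), a call lost without any library other than BTLA low replicate 1. The silent subunit gene KCNV1 was higher in each shBTLA library, with 2.03 ± 0.644 RPM against 0.827 ± 0.259 RPM in shControl, a difference of 1.19 (limma adjusted p = 0.192). KCNG1 differed by -0.03 in the knockdown and by -0.45 in the sort and passed neither test.

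KCNH3 rose in the sort by 0.40 (SE 0.09, limma adjusted p = 0.0138), from 23.6 ± 1.32 RPM in BTLA high to 31.2 ± 0.674 RPM in BTLA low. After scaling to the same median its difference was 0.14 and no longer passed, nor did it without BTLA low replicate 3 or BTLA high replicate 1. Its span overlaps the antisense gene MCRS1. The Kv1 beta subunit gene KCNAB3 was at 6.71 ± 0.327 RPM in BTLA low and 4.45 ± 0.321 RPM in BTLA high, a difference of 0.58 (limma adjusted p = 0.0164) that fell to 0.32 and did not pass after scaling, and did not pass without any of BTLA low replicates 1 and 3 and BTLA high replicate 1. Its span overlaps AC104581.2 on the same strand, so the genes may share reads. In the knockdown KCNAB3 lay the other way, at 2.92, 2.92 and 2.18 RPM in shBTLA and 3.67, 2.95 and 3.35 RPM in shControl (difference -0.31, limma adjusted p = 0.684). KCNAB2, the Kv1 beta subunit gene with more reads, averaged 22.8 to 29.0 RPM in the 4 groups and passed neither test. Of the KCNQ genes, slowly opening voltage-gated channels, none of 5 tested in the sort passed. KCNIP3, the calcium sensor also called DREAM, was at 1.13 ± 0.459 RPM in shBTLA and 0.436 ± 0.159 RPM in shControl, a difference of 1.18 (limma adjusted p = 0.274), and differed by -0.62 in the sort (limma adjusted p = 0.138).

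**Figure D4:**
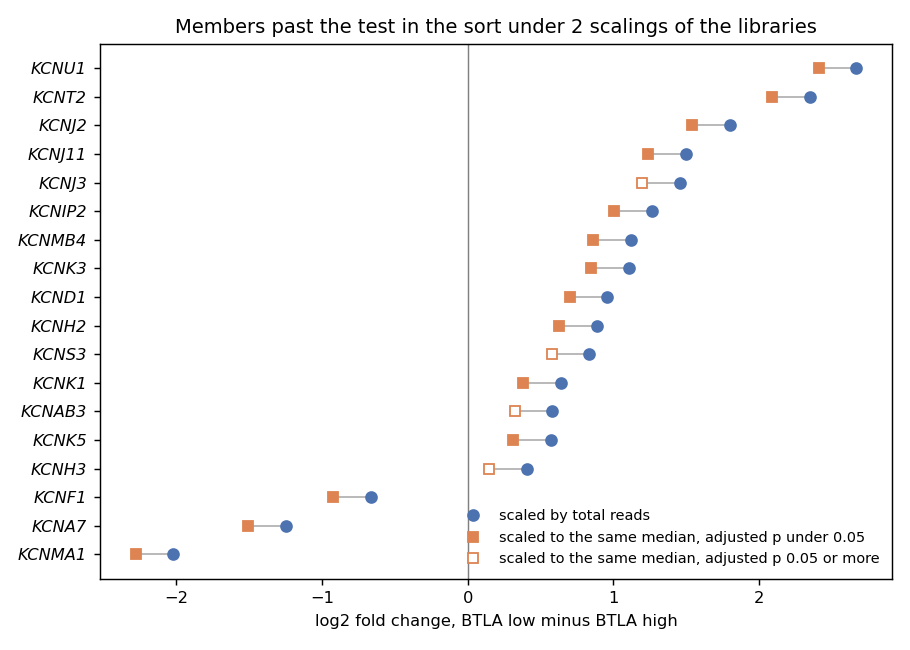
Log2 differences in the sort of the 18 potassium channel genes past the test, with libraries scaled by total reads (circles) and to the same median (squares, open where the adjusted p was 0.05 or more). All 18 keep their sign, and the 4 open squares are KCNAB3, KCNH3, KCNJ3 and KCNS3.

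Of the 18 genes past the test in the sort, 15 were also tested in the knockdown, where 11 (73.3%) differed in the same direction and 12 did not pass. Over all 4149 genes past the test in the sort and tested in the knockdown, 62.9% differed in the same direction. The experiments share no library. Of the 18 calls, 15 were of genes with 10 reads or more in at least 1 library of each group. Of these 15, 11 held under each of the 13 other analysis settings (12 for KCNT2). They were KCNA7, KCND1, KCNH2, KCNIP2, KCNJ11, KCNK1, KCNK3, KCNK5, KCNMA1, KCNMB4 and KCNT2. KCNT2 was not tested at the higher read minimum and reached 10 reads in only 1 BTLA high library. The study's own rule (a log2 difference of 1 or more in size with an unadjusted p no higher than 0.05), applied to the same fit, took 7 genes in the knockdown (6 higher, 1 lower) where it took 2.78% of all genes (1.74% higher, 1.03% lower). In the sort it took 10 (8 higher, 2 lower) where it took 8.34% of all genes (7.03% higher, 1.31% lower). Among the 8, KCNU1, KCNJ2 and KCNJ3 had reached the read minimum through the BTLA low libraries only and so had to differ.

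For genes under the read minimum the reads themselves are given. In the fit with no read minimum none of them passed in either experiment (lowest limma adjusted p = 0.0617). At an unadjusted limma p under 0.05 there were 4 of 35 with reads in the knockdown and 3 of 32 in the sort. The share of all genes at that threshold in this fit is not given here, so nothing is read from these counts. In the knockdown KCNQ1, the slow delayed rectifier gene, had 13, 6 and 16 reads in shBTLA and 2, 4 and 2 in shControl. KCNK2, the stretch-sensitive TREK-1 gene, had 2, 6 and 2 reads in shBTLA and 14, 6 and 14 in shControl, and after division by library totals these groups did not overlap. The auxiliary subunit gene KCNE5 had 7, 3 and 2 reads in shBTLA against 6, 10 and 9 in shControl, and 3, 2 and 4 in BTLA low against 5, 7 and 10 in BTLA high, and it overlaps ACSL4 on the same strand. KCNJ12 had 2, 2 and 2 reads in BTLA low against 6, 10 and 14 in BTLA high, and KCNH8 gave 1, 6 and 2 reads across BTLA low with none in BTLA high. Each of these non-overlapping groups had an exact permutation p of 0.1, the smallest possible, and these genes were named after their values were seen.

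Genes that work beside potassium channels were taken from a list of 45 that holds no potassium channel gene of the name rule: pump subunits, cotransporters, channel partners and related cation and anion channels. In the knockdown 2 of 24 tested passed, 1 higher and 1 lower, where 1.47% of all genes did. SLC12A2, which encodes the cotransporter NKCC1 that brings sodium, potassium and chloride into the cell, was at 40.4, 39.4 and 36.9 RPM in shBTLA and at 27.2, 18.0 and 18.9 RPM in shControl, a log2 difference of 0.89 (SE 0.17, limma adjusted p = 0.0488). LRRC8C, a subunit of the volume-regulated anion channel, was at 16.2, 13.8 and 17.5 RPM in shBTLA and at 36.8, 25.9 and 32.6 RPM in shControl, a difference of -0.99 (SE 0.17, limma adjusted p = 0.0309). Neither call held without any of shBTLA replicates 1, 2 and 3 or shControl replicate 3.

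In the sort 7 of 25 tested partner genes passed, 6 higher and 1 lower, or 28%, close to the 25.4% of all genes. SLC12A2 was again higher, at 104, 131 and 109 RPM in BTLA low and 27.4, 30.8 and 41.6 RPM in BTLA high, a log2 difference of 1.80 (SE 0.15, limma adjusted p = 0.00011). LRRC8C again fell by 0.70 (SE 0.14, limma adjusted p = 0.00724). The cation channel gene HCN3 was higher by 0.85 (limma adjusted p = 0.0281), the endosomal and lysosomal channel gene TMEM175 by 0.47 (limma adjusted p = 0.00993) and TMEM38A, a cation channel gene of the sarcoplasmic and endoplasmic reticulum, by 1.09 (limma adjusted p = 0.0160). Scaled to the same median, HCN3 (0.59, limma adjusted p = 0.0571) and TMEM175 (0.21, limma adjusted p = 0.257) no longer passed. Under that scaling 8 of the 25 did, 4 higher and 4 lower, where 27.6% of all genes did (9.34% higher, 18.3% lower).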

How the data were processed

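RNA of A549 cells was sequenced in 12 libraries, grouped by their labels. For the authors' tables, adaptors were removed by Trim Galore 0.6.6, alignment to GRCh38 was done in STAR with Ensembl genes, featureCounts gave the counts, and RPKM values were deposited for 60617 genes. The handling of strand and multi-mapped reads is not given in the sources used here. Deposited tables of gene coordinates also held the authors' own comparisons (log2 fold change, mean log2 CPM, likelihood ratio, p and FDR), which were not used.

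Each deposited RPKM divides reads by a gene span taken from another row of the table, end minus start in sorted order of gene IDs. With that span, 100.0% of 288571 values above 0 gave whole reads within 0.02 read. Spans of 1056 genes, KCNG1 among them, had to be searched. That search found the true span for 170 of 200 known genes, and an error there scales all libraries of a gene alike. Of values of 2 to 20 reads 72.1% were even, so mates may have been counted in pairs.

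Reads were divided by library totals, and log2(RPM + 0.1) was tested with limma 3.58.1 (lmFit, eBayes with trend) in R 4.3.3, within each experiment, keeping genes that reached 10 reads in 3 or more of 6 libraries. P-values were adjusted by Benjamini-Hochberg over all genes tested. Log2 differences understate changes of genes near the pseudocount of 0.1 RPM. Other scripts used Python 3.11.15. Fits were tested on simulated data. Alternatives were another pseudocount (1), another minimum (30 reads) or none, scaling to the same median, voom, RPKM as deposited, a replicate block, the study's rule, leaving out each library and, chosen after seeing the data, leaving out genes that reached the minimum through 1 group only.

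Named genes are those past the adjusted or the study's threshold in either experiment, the 2 with most reads in each role, the BK beta subunits, and partner genes past the adjusted threshold; the genes under the read minimum were named in addition. Some genes that this rule takes are not reported here. The genes and lists were chosen with earlier results of these data known.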

Additional observations from a re-analysis of the deposited data

How the results depend on the processing

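The study's rule took 7 potassium channel genes, 1 partner gene and 462 of all genes in the knockdown, and 10, 3 and 1410 in the sort. The 10 include KCNU1, KCNJ2 and KCNJ3, which met the read minimum through BTLA low only. With deposited RPKM as they stand, 0 partner genes passed limma's adjusted threshold in the knockdown (at an unadjusted p under 0.05 there were 3 higher and 1 lower, and voom called 2). Leaving out one library gave 0 to 4 potassium channel genes, 0 to 3 partner genes and 27 to 483 of all genes in the knockdown, and 13 to 18, 4 to 12 and 1984 to 5991 in the sort (4 partner genes without BTLA low replicate 3 or BTLA high replicate 1, 12 without BTLA high replicate 3). The fewest of all genes in the knockdown came without shBTLA replicate 1, 2 or 3 (31, 31 and 27) or shControl replicate 3 (33), and no potassium channel gene passed without any of these 4; in the sort the fewest came without BTLA low replicate 3 (2169) or BTLA high replicate 1 (1984). Samples with the same replicate number did not all deviate together (r 0.22, 0.41 and -0.04 in the knockdown, and 0.07, -0.37 and -0.16 in the sort). With the replicate number as a block, 4 potassium channel genes and 545 of all genes passed in the knockdown, and 13 and 2187 in the sort. No named potassium channel gene past the test changed sign under any of the alternatives. KCNU1, KCNT2, KCNJ2 and KCNJ3 were not tested at a minimum of 30 reads. The cause of these shifts was not tested. A floor of 3 reads came to 0.0706 to 0.103 RPM. The 35 genes with reads that met the minimum in neither experiment were left out by that minimum.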
